A study of Mus musculus with 7 samples.

Results

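The genes described here encode RANK, the receptor for RANKL, and the proteins that act directly beneath it. They are Tnfrsf11a (RANK), the adaptors Traf6, Traf1, Traf2 and Traf3, and the kinases Map3k7 (TAK1) and Map3k14 (NIK). Open chromatin at these genes was read from ATAC-seq, in which a transposase cuts accessible DNA. The cells were RAW264.7, a mouse macrophage-like line that can form osteoclasts. A peak of any list belonged to a gene if its midpoint lay in the mm10 gene body, or within 100 kb of it with no protein-coding gene nearer. By this rule the 7 genes, of 21887 protein-coding genes, held 828 of 975394 peaks. Peaks of the 7 lists that overlapped or touched were joined to regions, and 214 of 344401 regions held a peak of these genes.

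Cells were exposed for 4 h to RANKL (50 ng/ml; 2 libraries), to RANKL with I-BET (500 nM; 2 libraries) or to I-BET without RANKL (1 library, labelled replicate 2), and 2 libraries came from untreated cells. I-BET blocks BET proteins, which read acetylated histones. Each library was made from 50000 cells. The source field of the labels reads bone marrow, while the cell line field gives RAW264.7. The labels do not say that replicates were separate cultures, so the spread between libraries may be technical.

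RANK has no enzyme activity of its own. When RANKL binds, the receptor gathers TRAF adaptors at its cytoplasmic tail; TRAF6 builds ubiquitin chains that bring in TAK1, which switches on the IKK complex and the MAP kinases, and so NF-kB and AP-1. A slower arm runs through NIK, which TRAF2 and TRAF3 keep low in resting cells by directing its breakdown. Mice without RANK or TRAF6 lack working osteoclasts and have dense bones.

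Promoter sequence is shown for the genes whose start sites behaved most differently in these data: the receptor, the adaptor whose start site lay under no peak, and the kinase whose start site carried the peak ranked highest. Sequences are from RefSeq on GRCm38.p6 (mm10), 5′ to 3′ on the gene's own strand and upstream of the gene body, and capitals mark matches to the motifs named below. They cover chr1:105780473-105780672 on the plus strand for Tnfrsf11a, chr2:34961813-34962022 on the minus strand for Traf1, and chr11:103267402-103267651 on the minus strand for Map3k14.
Tnfrsf11a: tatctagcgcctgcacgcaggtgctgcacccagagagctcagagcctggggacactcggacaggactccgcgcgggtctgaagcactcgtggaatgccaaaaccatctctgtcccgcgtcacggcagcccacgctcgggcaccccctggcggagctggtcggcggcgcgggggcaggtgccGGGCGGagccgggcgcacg
Traf1: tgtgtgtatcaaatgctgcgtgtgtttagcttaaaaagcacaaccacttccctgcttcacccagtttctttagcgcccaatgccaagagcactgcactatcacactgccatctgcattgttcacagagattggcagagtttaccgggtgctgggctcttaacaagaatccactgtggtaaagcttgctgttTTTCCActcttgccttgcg
Map3k14: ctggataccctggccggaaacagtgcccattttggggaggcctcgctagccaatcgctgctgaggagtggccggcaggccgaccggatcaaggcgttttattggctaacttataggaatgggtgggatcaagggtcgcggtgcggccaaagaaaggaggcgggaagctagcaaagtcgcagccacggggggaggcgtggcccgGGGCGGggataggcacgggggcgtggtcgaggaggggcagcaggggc

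Over the whole RefSeq window, 250 bases before to 50 after the start, the promoter of Tnfrsf11a was 76.7% G and C with 43 CpG pairs, and that of Map3k14 65.0% with 25. The Traf1 promoter was 48.7% G and C with 4 CpG pairs, which was below the median of 21263 promoters (56.3% and 13 CpG pairs). The other promoters lay above that median, at 59.3% for Traf6, 64.0% for Traf2, 69.0% for Map3k7 and 84.0% for Traf3, with 99.8% of promoters below it. A GC box (GGGCGG, both strands), the core of Sp1 sites, occurred 5 times at Tnfrsf11a, 4 times at Traf3, 2 times each at Traf6 and Map3k7, once each at Traf2 and Map3k14, and at Traf1 not at all. It is present in 46.2% of promoters.

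Other motifs were counted in the same windows. A kappaB motif occurred once each at Traf3 and Map3k7 (4.81% of promoters), and the NFAT core TGGAAA once each at Traf1 and Traf3 (19.3%). The PU.1 core GAGGAA occurred 2 times at Traf6 and once each at Traf2, Traf3 and Map3k7 (27.4%). No AP-1 motif (TGANTCA, 6.99% of promoters) and no E-box (CACGTG, 7.84%) lay in the windows of the 7 genes. The NFAT match at Traf1 starts 59 bases upstream of the start.

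The lists held 132626 to 154069 peaks with RANKL, 125240 to 166369 with RANKL and I-BET, 143176 with I-BET and 117175 to 136739 in untreated cells. They covered 81.0 and 82.4 Mb with RANKL, 67.5 and 119 Mb with RANKL and I-BET, 68.2 Mb with I-BET, and 58.4 and 73.8 Mb in untreated cells. Untreated replicate 1 stood apart: 42.9% of its regions had a call in that library alone, against 8.95% to 27.1% in the others, and 25.3% of its peaks had a -log10 q of 5 or more, against 36.8% to 74.0%. Read counts per library were not given in the sources used here, so depth is unknown. All 10 macrophage markers listed, such as Csf1r and Spi1, had a region called in all 7 libraries, as did 9 of 10 osteoclast, 4 of 5 B lymphocyte, 4 of 5 T lymphocyte, 3 of 5 fibroblast or osteoblast and 3 of 5 epithelial markers. Having such a region therefore does not set a cell type apart.

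Open chromatin at these genes was mostly of the kind found in every library or in 1 library, as it was over all regions. Regions called in all 7 libraries numbered 47 of 214 (22.0%), against 12.5% of all regions, and regions called in 1 library 86 (40.2%), against 55.6%. The shared regions had a median length of 1481 bp, those called in 1 library 199.5 bp. By gene, the shared regions numbered 12 at Map3k14, 11 at Tnfrsf11a, 8 at Traf3, 5 at Map3k7, 4 each at Traf1 and Traf2, and 3 at Traf6. Of all 214 regions, 143 lay mainly in the gene body, 38 upstream and 33 downstream. Whether a body region is exonic or intronic was not analysed here, since the annotation used gives gene bodies.

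Tnfrsf11a held the most regions of the 7 genes, 57, and 823 of the 19271 genes with a region held more. Traf3 held 49, Map3k7 30, Map3k14 29, Traf2 21, Traf1 19 and Traf6 9, while the median gene held 10. The room for regions differed too. Traf6 is 23249 bp long, with Rag1 28888 bp before it and Prr5l 11442 bp beyond it. Tnfrsf11a is 68772 bp long, with Relch 25542 bp before it and Zcchc2 140946 bp beyond it. Map3k7 is 59979 bp long, with its neighbours 2995989 bp before it and 214943 bp beyond it. It thus had wider gaps but fewer regions than Tnfrsf11a. Whether room bears on the number of regions was not tested.

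Treated and untreated cells overlapped in the number of peaks at 5 of the 7 genes, and the exceptions were Map3k7 and Traf6. The share of all genes with such an order of raw counts was not computed, and the lists differed in length. Tnfrsf11a had 31 and 39 peaks with RANKL, 19 and 44 with RANKL and I-BET, 27 with I-BET, and 24 and 38 in untreated cells. For Map3k7 the counts were 14 and 13 with RANKL, 13 and 18 with RANKL and I-BET, 14 with I-BET, and 7 and 9 in untreated cells. The 5 treated libraries thus all lay above both untreated ones at Map3k7, and at Tnfrsf11a the groups overlapped.

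The longer lists were allowed for by counting peaks per 1000 peaks of the list. Map3k7 then had 0.0909 and 0.0980 with RANKL, 0.104 and 0.108 with RANKL and I-BET, 0.0978 with I-BET, and 0.0512 and 0.0768 in untreated cells. Its groups still did not overlap. Of 15872 genes with at least 10 peaks, 4.15% had all 5 treated libraries above both untreated ones and 4.69% all 5 below. Map3k7 was alone among the 7 genes in this, and in having RANKL above untreated cells (12.4% of genes) and RANKL with I-BET above RANKL (14.8%). With lists cut to equal length the 5 treated libraries held 0.102 to 0.111 and the untreated ones 0.0512 and 0.0768. Among peaks with a -log10 q of at least 5 the groups overlapped, since the treated libraries held 0.0997 to 0.152 and untreated replicate 1 held 0.116. The order of RANKL with I-BET over RANKL was lost with equal lists (0.102 and 0.111 against 0.111 and 0.102 with RANKL). It was reversed at a -log10 q of at least 5, with 0.0997 and 0.106 against 0.116 and 0.108 with RANKL. The comparison by share was added once the counts had been seen.

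Traf6, the adaptor of the TAK1 arm, had 6 and 6 peaks with RANKL, 6 and 7 with RANKL and I-BET, 8 with I-BET, and 3 and 5 in untreated cells. Traf2 had 7 and 15 peaks with RANKL, 8 and 13 with RANKL and I-BET, 5 with I-BET, and 7 and 7 in untreated cells. At Traf1, a TRAF without the RING domain of its relatives, there were 13 and 18 peaks with RANKL, 11 and 20 with RANKL and I-BET, 10 with I-BET, and 8 and 10 in untreated cells. Counts at Traf6 and Traf1 were thus lowest in untreated replicate 1, while the treated libraries at Traf2 ranged on both sides of the untreated ones. As a share of the list, Traf6 had 0.0389 to 0.0559 peaks per 1000 in the treated libraries, against 0.0219 and 0.0427 in untreated cells, which overlapped. Traf3, which holds NIK down, had 15 and 25 peaks with RANKL, 24 and 27 with RANKL and I-BET, 18 with I-BET, and 22 and 18 in untreated cells. Map3k14 was the steadiest, at 23 and 25 peaks with RANKL, 24 and 25 with RANKL and I-BET, 27 with I-BET, and 25 and 27 in untreated cells. As a share of the list, Traf1, Traf2, Traf3 and Map3k7 had both libraries of RANKL with I-BET above both untreated ones (4 of 7 genes, against 13% of genes), and none of the 7 genes had the reverse order (12.6%). Nor did any have RANKL below untreated cells (13.7% of genes) or RANKL with I-BET below RANKL (9.89%). These orders changed with the peaks counted. With lists of equal length, Traf1 and Map3k7 still had both libraries of RANKL with I-BET above both untreated ones, while at Traf2 and Traf3 they did not (0.0683 and 0.0597 against 0.0597 and 0.0597 in untreated cells at Traf2). At a -log10 q of at least 5 none of the 7 genes had that order. RANKL with I-BET then lay below untreated cells at Tnfrsf11a (0.233 and 0.276 against 0.290 and 0.320) and at Traf2 (0.0665 and 0.0569 against 0.0869 and 0.0696). RANKL lay below untreated cells at Traf2 (0.0582 and 0.0678), and RANKL with I-BET below RANKL at Traf1, Traf3 and Map3k7. In the other direction, RANKL lay above untreated cells at Traf1 (0.1163 and 0.1626 against 0.1158 and 0.1114). It also did so at Traf3 (0.131 and 0.136 against 0.116 and 0.111). The share of all genes with such orders was not computed for equal lists or for this limit on q.

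**Figure D1:**
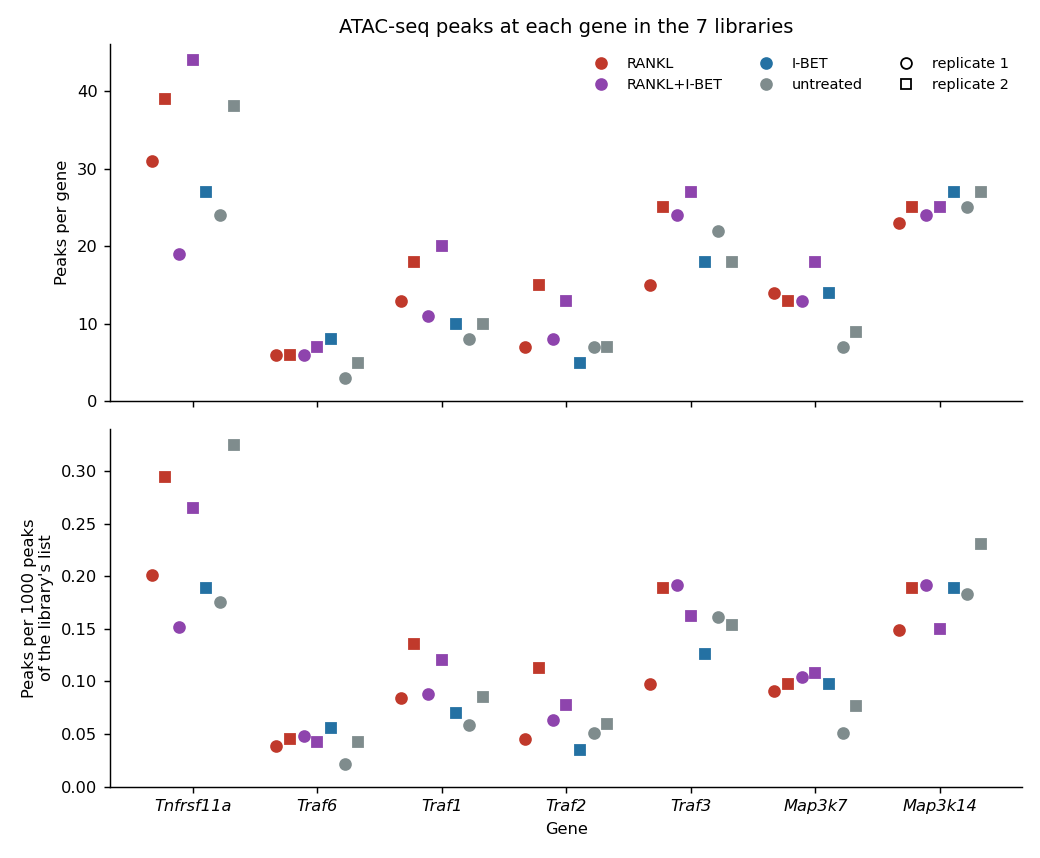
Peaks per gene (upper panel) and peaks per 1000 peaks of the library's list (lower panel) at the 7 genes, with 1 point per library; colours give the treatment and shapes the replicate number. At Map3k7 the untreated libraries, with 7 and 9 peaks, lie below all 5 treated ones, and at Tnfrsf11a the range within RANKL with I-BET, 19 to 44, spans all other libraries.

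The start sites of 6 of the 7 genes lay under a peak in all 7 libraries, as did 47.3% of 21263 protein-coding start sites. The exception was Traf1, whose start lay under no peak in any library, as did 39.9% of start sites. Peaks were ranked within each list by the authors' -log10 p, and a rank is given as a percentage of the list, so that a small figure means a peak near the top. These ranks describe each list alone and show no change between lists.

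Map3k14 carried the highest ranked start peak of the 7 genes in all libraries but that of I-BET. It stood at 0.471% and 1.19% of the list with RANKL, at 0.402% and 0.695% with RANKL and I-BET, at 2.07% with I-BET, and at 0.212% and 0.887% in untreated cells. With I-BET the start peak of Traf2 stood higher, at 1.97%. The joined start region of Map3k14 was also the longest of the 214, 6759 bp (chr11:103264260-103271018). NIK is controlled mainly through the stability of its protein, and the top of its gene was open in all 4 conditions.

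Start peaks of Traf2, Traf3, Traf6 and Map3k7 were all within the top 10% of their lists. Traf2, which recruits the ligases that break NIK down, ranged from 1.26% (RANKL replicate 2) to 2.62% (RANKL with I-BET replicate 1), with 1.70% and 1.77% in untreated cells. Map3k7 had 1.85% and 5.20% with RANKL, 2.57% and 3.53% with RANKL and I-BET, 4.20% with I-BET, and 2.35% and 7.43% in untreated cells. At Traf6 the range was 5.25% to 9.29% over treated libraries, against 4.90% and 8.51% in untreated cells, and at Traf3 4.65% to 8.89% against 3.61% and 7.13%. In each of these genes at least 1 untreated library lay within the range of the treated ones. With so few libraries such an overlap would be common in any case, so it does not show that ranks were unchanged.

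Tnfrsf11a was the only gene with a start peak outside the top 10% in some lists. Its start peak stood at 11.0% and 7.68% with RANKL, at 13.1% and 8.58% with RANKL and I-BET, at 9.71% with I-BET, and at 11.3% and 9.33% in untreated cells. The receptor gene had a stronger peak elsewhere in every library. In all but RANKL replicate 1 this lay in the gene body, in chr1:105788213-105791354, whose midpoint is 9060 bp after the start. That region reached a -log10 p of 242 and 267 with RANKL, 198 and 1232 with RANKL and I-BET, 103 with I-BET, and 90.5 and 276 in untreated cells. In RANKL replicate 1 the strongest peak, chr1:105866577-105867381 with a -log10 p of 247, lay beyond the gene, in the region chr1:105864170-105867434, whose midpoint falls in the lncRNA Gm41926. The 2 regions were nearly equal in that list, with ranks of 3.03% for the downstream one and 3.12% for the one in the body.

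The Tnfrsf11a locus as a whole held 8 shared regions in the body and 3 downstream. From the start into the gene, 3 neighbouring shared regions followed each other, at chr1:105779718-105783979, chr1:105784085-105788111 and chr1:105788213-105791354. The most distant shared region, chr1:105905935-105906970, lay 57008 bp beyond the gene with its midpoint in the lncRNA Gm41927. It had a -log10 p of 124 and 204 with RANKL, 85.1 and 761 with RANKL and I-BET, 56.0 with I-BET, and 16.1 and 131 in untreated cells. Set against the second region of the 5′ group, with 110 and 143 with RANKL and 77.1 and 149 in untreated cells, the distal region was the stronger one in both RANKL lists and the weaker one in both untreated lists. With I-BET added the order was split: the second region had 164 and 478 with RANKL and I-BET, so that the distal region was weaker in replicate 1 and stronger in replicate 2, and with I-BET alone it was weaker (second region 74.4).

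**Figure D2:**
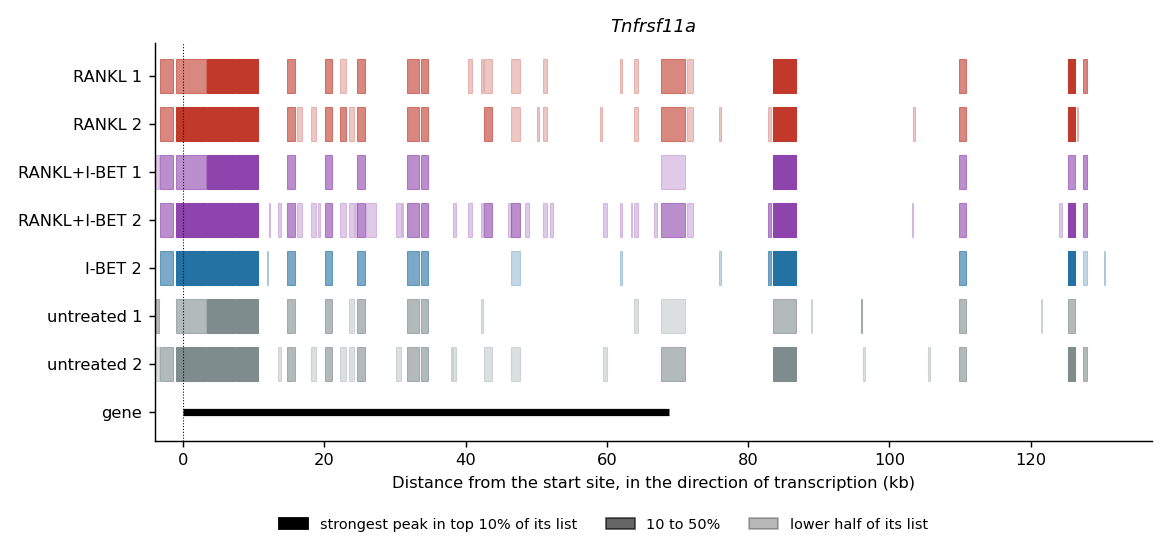
Regions at Tnfrsf11a in each library (rows) by distance from the start site in kb, in the direction of transcription; each box is the full joined region, drawn where the library called it, and its shade gives the rank of the strongest peak in that library's list. The 11 regions called in all 7 libraries form the columns present in every row, with dark boxes in the gene body close to the start in every row.

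Such changes of order within a gene were rare. The 47 shared regions form 174 pairs within genes, and 114 pairs (65.5%) had the same order of -log10 p in all 7 lists, against 60.6% of pairs over all genes. Between RANKL and untreated cells, 1 pair changed order in both libraries of each group, the Tnfrsf11a pair above (0.575%, against 2.32% over all genes). Between RANKL with I-BET and RANKL no pair did (0.668% over all genes). Between RANKL with I-BET and untreated cells 2 pairs did (1.15%, against 1.94%), 1 each at Map3k14 and Map3k7. At Map3k7, the body region chr4:32010759-32011957 had a -log10 p of 18.1 and 53.3 with RANKL and I-BET, just above the upstream region chr4:31941473-31942183 with 11.2 and 52.4. In untreated cells the body region had 4.14 and 11.9 and the upstream region 16.1 and 24.2. The gap in replicate 2 of RANKL with I-BET was small beside the values themselves. Split by RANKL or none, no pair changed order (0.565% over all genes), nor did any split by I-BET or none (0.05%) or by replicate number (2.18%). The order of regions was a measure added once the lists had been examined.

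At Traf1 the strongest chromatin lay on both sides of the annotated start. The upstream region chr2:34962643-34964645 was called in all 7 libraries, and its midpoint was 1832 bp upstream of the gene body. Its -log10 p was 120 and 147 with RANKL, 163 and 602 with RANKL and I-BET, 49.6 with I-BET, and 46.6 and 126 in untreated cells. A body region, chr2:34956725-34959341, had 58.8 and 182 with RANKL, 59.0 and 551 with RANKL and I-BET, 32.9 with I-BET, and 49.2 and 104 in untreated cells. The body region was the stronger one in RANKL replicate 2 and untreated replicate 1, and the upstream region in the other 5 lists. Both lie in the span of the lncRNA Gm52552, which overlaps Traf1, so a peak here cannot be credited to either gene by position. The peak nearest to the start was 113 bp away at the closest (RANKL with I-BET replicate 2), and that peak ranked at 93.3% of its list.

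At Traf3 an upstream region outranked the start peak in 6 of the 7 libraries. The region chr12:111159483-111161526, with its midpoint 5817 bp upstream of the gene body, had a -log10 p of 279 and 232 with RANKL, 183 and 970 with RANKL and I-BET, 71.0 with I-BET, and 87.5 and 180 in untreated cells. The start peak had 180 and 155 with RANKL, 158 and 511 with RANKL and I-BET, 41.9 with I-BET, and 172 and 133 in untreated cells. Only in untreated replicate 1 was the start peak the stronger, and the other untreated library had the order of the treated ones. Both regions lie in the span of the lncRNA 4930595D18Rik.

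At Traf2 the second strongest site differed between libraries. The body region chr2:25533981-25535332 had a -log10 p of 57.6 and 154 with RANKL, 67.9 and 517 with RANKL and I-BET, 8.56 with I-BET, and 61.4 and 18.3 in untreated cells. The upstream region chr2:25548623-25550297 had 50.3 and 105 with RANKL, 19.0 and 442 with RANKL and I-BET, 14.2 with I-BET, and 22.4 and 49.5 in untreated cells. The body region was thus the stronger in all 4 libraries with RANKL, the upstream one was stronger with I-BET alone, and the untreated libraries disagreed.

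Map3k14 carried further strong regions in its body and upstream of it. In the body, chr11:103245919-103248034 had a -log10 p of 53.9 and 274 with RANKL, 51.6 and 866 with RANKL and I-BET, 64.3 with I-BET, and 37.7 and 211 in untreated cells. In its own list it stood at 13.2% and 1.86% with RANKL, 15.1% and 2.40% with RANKL and I-BET, 4.80% with I-BET, and 9.97% and 2.90% in untreated cells. It was second to the start region only in replicate 2 of RANKL, of RANKL with I-BET and of untreated cells. In the other libraries a peak at another place was stronger. In RANKL replicate 1 (105) and with I-BET (93.7) it lay upstream of the gene, at chr11:103281537-103282456 and chr11:103281416-103282362. In replicate 1 of RANKL with I-BET (120) and of untreated cells (60.0) it lay in the body, at chr11:103248741-103250277 and chr11:103249425-103250265. At Traf6 and Map3k7 the start peak stood far above the rest of the locus, the next strongest peak being at 23.5% to 39.3% of the list for Traf6 and 14.2% to 22.1% for Map3k7 over the 7 libraries.

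**Figure D3:**
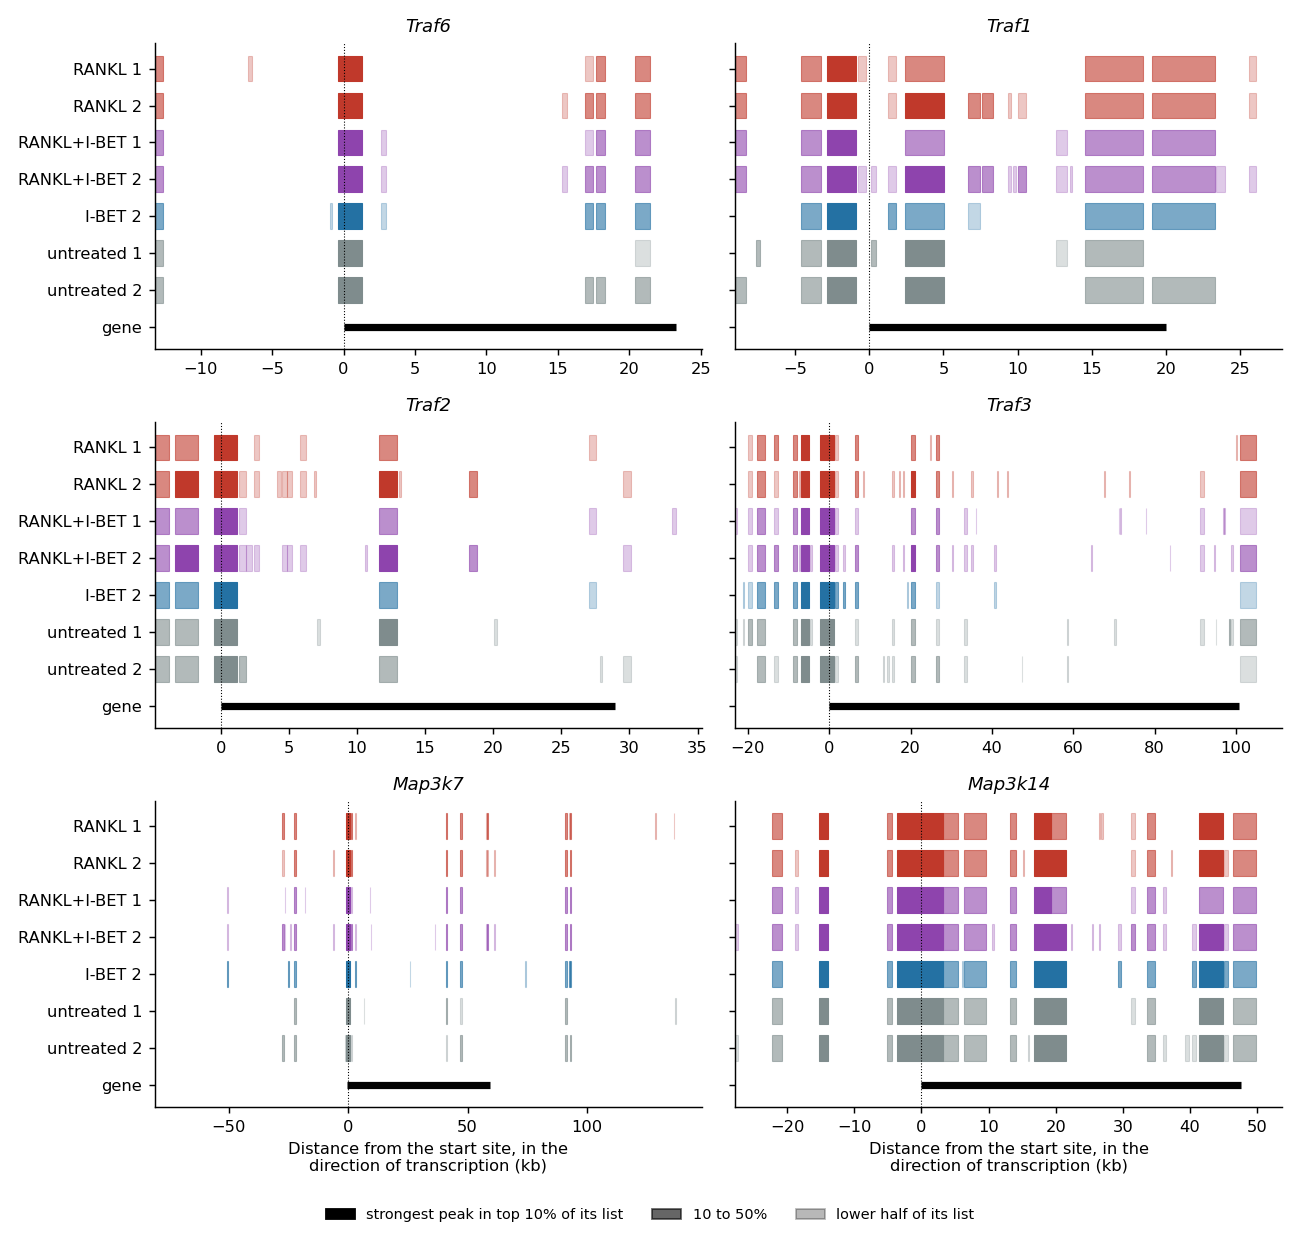
Regions at the 4 adaptor genes and 2 kinase genes in each library (rows) by distance from the start site in kb, in the direction of transcription; each box is the full joined region, drawn where the library called it, and its shade gives the rank of the strongest peak in that library's list. The start region is dark in every row except at Traf1, where the dark boxes flank the start.

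**Figure D4:**
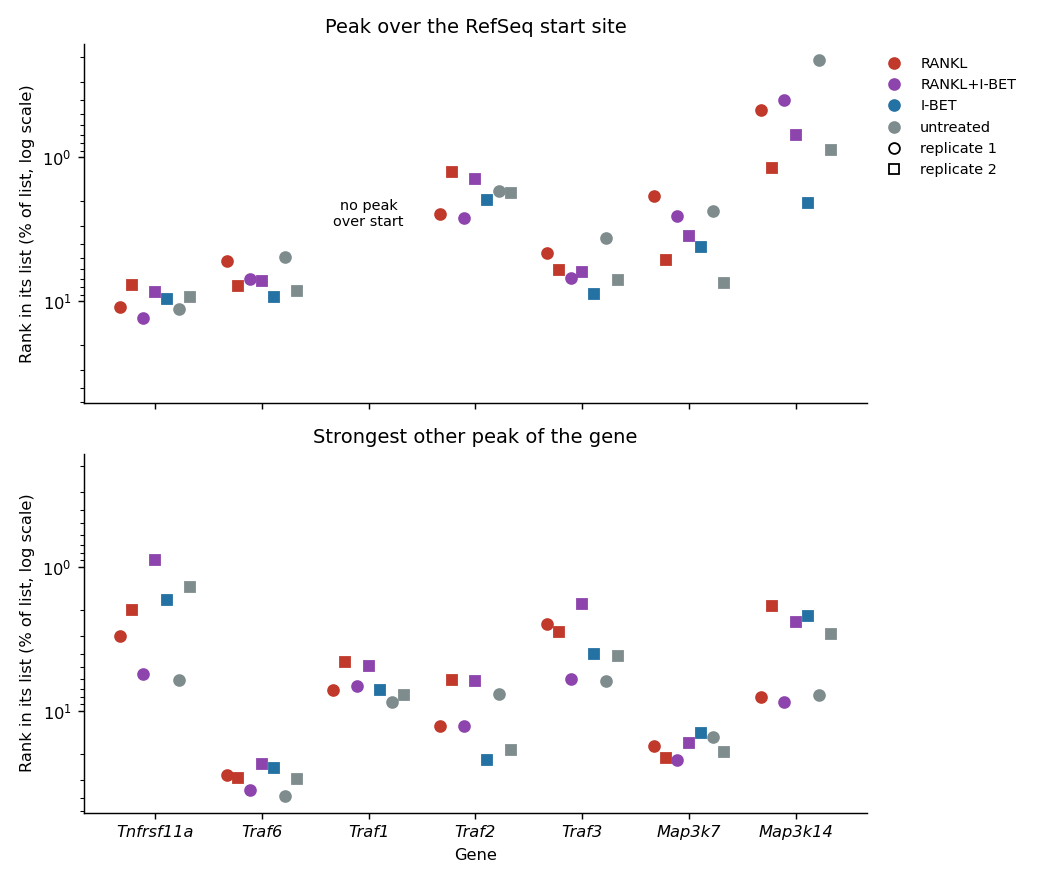
Rank in its list (percent, log scale, stronger peaks higher) of the peak over the start site (upper panel) and of the strongest other peak of the gene (lower panel), with 1 point per library. Start peaks of Map3k14 lie between 0.212% and 2.07%, those of Tnfrsf11a between 7.68% and 13.1%, and Traf1 has none.

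RANKL against untreated cells asks which chromatin at the receptor's own signalling genes was called in 1 condition only. Of 164 regions called in any of these 4 libraries, 8 (4.88%) were called in both RANKL libraries and neither untreated one, against 3.37% of all regions. They comprised 2 each at Tnfrsf11a, Traf1, Traf2 and Map3k7, and none at Traf6, Traf3 or Map3k14. The genes changed with the unit used. With windows of 100 bp either side of each peak summit, Tnfrsf11a and Traf1 had 3 each, Traf2 2, and Map3k7 and Map3k14 1 each. In the opposite direction, 4 joined regions (2.44%, against 0.748%) were called in both untreated libraries and neither RANKL one. Of these, 3 lay at Traf3 and 1 at Tnfrsf11a. Regions split 1 to 1 between the groups numbered 7 (4.27%, against 8.48%), and 48 were called in all 4 libraries (29.3%, against 18.2%). With 2 libraries against 2 there are 3 ways to split them, so no p under 0.05 can be reached and none is given.

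The 8 regions of RANKL were weak peaks. At Tnfrsf11a, chr1:105831638-105832272 in the body had a -log10 p of 3.99 and 6.58 with RANKL, and chr1:105852048-105852867, 3013 bp beyond the gene, 2.93 and 2.29. At Traf1, chr2:34935649-34936130 beyond the gene had 2.45 and 4.26, and chr2:34959974-34960484 in the body 2.93 and 3.56. At Traf2, both regions lay in the body: chr2:25540650-25541103 had 2.93 and 5.77, and chr2:25544129-25544496 had 3.99 and 6.58. The lowest -log10 p in the 7 lists was 2.01, so several of these peaks lay near that limit. The largest -log10 p in RANKL replicate 1 stood at the 3′ end of Map3k7, where chr4:32021760-32022191 had 4.56 and 4.26 with RANKL and its neighbour chr4:32022292-32022753 had 12.3 and 4.99. In RANKL replicate 1, 7 of the 8 ranked below the middle of the list, and in RANKL replicate 2 all 8 did.

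The same 8 regions were called unevenly once I-BET was added. All 8 were called in replicate 2 of RANKL with I-BET and none in replicate 1, against 85.2% and 39.9% of all regions of this kind. The library of replicate 2 had the largest covered length, 119 Mb, and the other 67.5 Mb, and the part of this gap in the result was not tested. In the library that called it, chr4:32022292-32022753 at Map3k7 had a -log10 p of 45.5. With I-BET alone 1 of the 8 was called (32.1% of all regions of this kind), chr2:34959974-34960484 at Traf1.

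The 4 regions of untreated cells were as weak. At Tnfrsf11a, chr1:105776694-105777310, 3671 bp upstream of the gene, had a -log10 p of 4.82 and 5.48 in untreated cells. At Traf3, chr12:111143283-111143765 upstream had 3.50 and 3.23, and chr12:111199530-111200169 and chr12:111224808-111225183 in the body had 3.50 and 3.94, and 4.14 and 5.48. Replicate 1 of RANKL with I-BET called 3 of the 4 and replicate 2 called 1, and with I-BET alone none was called. Of all regions of this kind these libraries called 20.7%, 47.5% and 20.1%. Of these, chr12:111199530-111200169 at Traf3 was called in both libraries of RANKL with I-BET and in both untreated ones, but in neither RANKL library.

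RANKL with I-BET against RANKL asks what the inhibitor changed during induction. Of 182 regions, 6 (3.30%, against 1.86% of all regions) were called in both libraries with the inhibitor and neither without it. None had the reverse pattern (0.571% of all regions), 28 were split 1 to 1 (15.4%, against 12.6%), and 59 were called in all 4 libraries (32.4%, against 26.8%). The 6 regions comprised 2 at Map3k7 and 1 each at Traf6, Traf1, Traf3 and Map3k14, and none at Tnfrsf11a or Traf2. Of these, 2, chr4:31913241-31913617 at Map3k7 and chr2:101681045-101681375 at Traf6, were also called with I-BET alone, against 23.0% of all regions of this kind. Each untreated library called 2 of the 6, against 23.0% of such regions in replicate 1 and 24.5% in replicate 2. Their -log10 p ranged from 2.61 to 4.80 in replicate 1 and from 3.27 to 9.56 in replicate 2. All 6 ranked below the middle of both lists. Leaving out replicate 1 of RANKL with I-BET raised the 6 to 44 and kept the reverse count at 0, and leaving out its replicate 2 gave 17 and 13. The reverse count was 16 when RANKL replicate 1 was dropped and 7 when RANKL replicate 2 was dropped.

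The 2 regions at Map3k7 and Traf6 were the only ones of the 214 called in all 3 libraries with I-BET and none of the 4 without it (0.935%, against 0.142% of all regions). The Map3k7 region, 50063 bp upstream of the gene, had a -log10 p of 4.80 and 9.56 with RANKL and I-BET and 7.53 with I-BET. The Traf6 region, 2790 bp inside the gene, had 2.61 and 5.47 with RANKL and I-BET and 2.99 with I-BET. Neither was called in a library of RANKL or of untreated cells. No region of the 7 genes was called in all 4 libraries without I-BET and none with it (0.00755% of all regions). Likewise none was called in all 4 libraries with RANKL and none of the 3 without it (0.529%), and none had the reverse pattern (0.0244%).

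RANKL with I-BET against untreated cells gave 4 regions called in both treated libraries and neither untreated one (2.20% of 182, against 3.73% of all regions). These were the regions at Traf6 and Map3k7 just named, chr4:31937462-31937786 at Map3k7 and chr11:103285847-103286196 upstream of Map3k14. One region, chr12:111224808-111225183 at Traf3, was called in both untreated libraries alone (0.549%, against 0.458%). Dropping replicate 1 of RANKL with I-BET gave 62 and 3 such regions, and dropping its replicate 2 gave 14 and 3. Dropping untreated replicate 1 gave 8 and 11, and dropping untreated replicate 2 gave 16 and 13. Split regions numbered 18 (9.89%, against 11.1%) and regions called in all 4 libraries 49 (26.9%, against 17.9%).

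I-BET alone had 1 library and no replicate check. Of 132 regions called in it or in untreated cells, 22 were called with I-BET and in neither untreated library (16.7%, against 21.4% of all regions). They included 7 at Map3k7, 5 at Tnfrsf11a and 3 at Traf3, 2 each at Traf6, Traf1 and Map3k14, and 1 at Traf2. Another 7 were called in both untreated libraries and not with I-BET (5.30%, against 2.38%), 4 at Traf3 and 3 at Tnfrsf11a, and 47 in all 3 libraries (35.6%, against 20.8%).

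**Figure D5:**
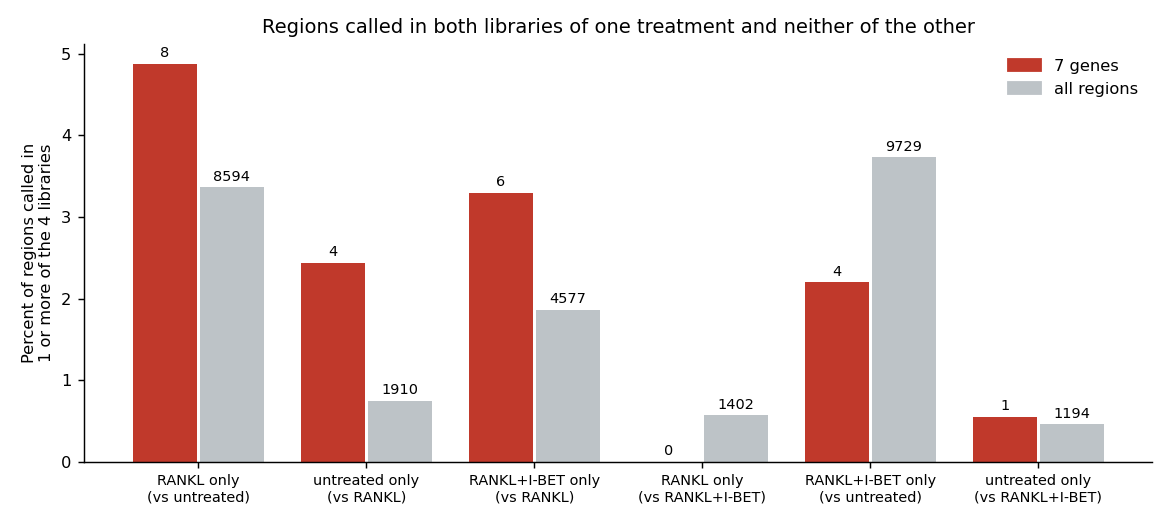
Share of regions (percent of those called in 1 or more of the 4 libraries compared) called in both libraries of 1 treatment and neither of the other, for the 7 genes and for all regions, with the number of regions above each bar. The 7 genes have 8 regions of RANKL and 4 of untreated cells in the first comparison, and no region of RANKL against RANKL with I-BET.

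Some regions were missing in 1 library alone. Of 9 regions called in 6 libraries, 7 were missing in untreated replicate 1 alone: 2 each at Traf6 and Traf3 and 1 each at Tnfrsf11a, Traf1 and Map3k7. The others were missing with I-BET alone (Tnfrsf11a, chr1:105848359-105851800) and in untreated replicate 2 alone (Traf3, chr12:111146359-111147365). The share of all regions missing in 1 library alone was not computed, so these counts are not set apart from the genome. Over all regions, untreated replicate 1 shared 26.0% to 30.0% of the regions of both with each other library. In the 6 libraries that called it, the Traf6 region chr2:101696108-101696739 had a -log10 p of 14.8 and 21.6 with RANKL, 8.87 and 65.0 with RANKL and I-BET, 6.53 with I-BET, and 9.92 in untreated replicate 2. The count of 8 regions of RANKL was higher with each library left out, when fewer calls have to be the same, while the 4 of untreated cells stayed at 4 without RANKL replicate 1. Leaving out RANKL replicate 1 gave 41 regions of RANKL and 4 of untreated cells, and leaving out RANKL replicate 2 gave 21 and 6. Leaving out untreated replicate 1 gave 11 regions of RANKL and 21 of untreated cells, and leaving out untreated replicate 2 gave 21 and 20.

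The wider pathway was read in 32 further genes, from the ligand to the kinases. They held 735 regions, of which 136, at 30 genes, were called in all 7 libraries, against 12.5% of all regions and 75.9% of all genes with a region. The pathway genes held a median of 20.5 regions and all genes with a region 10, so shares of genes are not matched for number of regions. The gene of RANKL itself, Tnfsf11, had 25 regions and that of its decoy receptor, Tnfrsf11b, 7, and neither had a region called in all 7 libraries. Between RANKL and untreated cells 15 regions at 13 genes were called with RANKL alone and 4 at 4 genes in untreated cells alone. Over all genes with a region, 27.0% had a region of the first kind and 8.48% of the second. Of all 344401 regions, 8594 were of the first kind and 1910 of the second. Pathway genes with at least 2 such regions were Map2k4, a kinase of the JNK branch, and Ube2v1, a partner of the ubiquitin-conjugating enzyme that works with TRAF6, with 2 regions of RANKL each.

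Adding I-BET to RANKL gave 11 regions at 9 of these genes called in both libraries of RANKL with I-BET and neither of RANKL, and 1 region the other way, kinds found at 17.8% and 5.99% of all genes with a region. Map2k4 and Ube2v1 again had 2 each of the 11. Set against untreated cells, RANKL with I-BET had 18 regions of its own at 10 genes, against 2 at 2 genes in untreated cells. Such regions occurred at 29.9% and 5.51% of all genes with a region, so these counts were near the background. Regions of RANKL with I-BET included 4 at Tank, a TRAF-binding adaptor, 3 at Ube2v1, and 2 each at Map2k4, Map2k6 and Tnfaip3, which encodes the deubiquitinase A20. These comparisons share libraries with each other, so their counts are not independent.

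Genes most like each member were sought by the Pearson correlation, over the 7 libraries, of the log2 share of the list's peaks, among 15872 genes with at least 10 peaks. The points are the 7 libraries, the same for every gene, and the values describe these lists only. The closest to Tnfrsf11a were Noxred1 (r = 0.98), Cacng6 (r = 0.97) and Masp2 (r = 0.97). The closest to the other members were Glud1 for Traf6, Rab22a for Traf1, Mapk8ip1 for Traf2, Fbxo27 for Traf3, Ube2e1 for Map3k7 and Fut7 for Map3k14, with r between 0.98 and 0.99. Ube2e1 had 12 and 12 peaks with RANKL, 12 and 18 with RANKL and I-BET, 12 with I-BET, and 5 and 7 in untreated cells, the same order of treated over untreated libraries as Map3k7. Its choice by correlation over these libraries favours such a likeness, which is no separate result.

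The distance limit mattered at Map3k7 alone. Its farthest peak inside the limit lay 80330 bp from the gene with a -log10 p of 2.99 (I-BET), and 37 peaks nearest to it lay beyond 100 kb, the first at 109385 bp with a -log10 p of 3.50 (untreated replicate 1). The other 6 genes had no peak beyond the limit, since other coding genes are nearer there.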

How the data were processed

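ATAC-seq peak lists of 7 libraries were used as deposited. Per the submitters' processing notes, reads were handled on mm10 with Bowtie2, MACS2, Picard, SAMtools, bedtools, FastQC and cutadapt; versions and settings are not given in the sources used here. The authors called peaks sample by sample, since each library has a list of its own. Each line holds the authors' score, which equalled the whole part of 10 times the -log10 p-value in 100% of lines, a fold (ratio over background), a -log10 p and a -log10 q. These deposited values were used only to rank, filter or describe peaks within a list.

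Overlapping or touching peaks were joined, and a library called a region with 1 bp or more. Genes and promoters came from RefSeq tables for GRCm38.p6, in which all 7 members and all 32 pathway genes were found. Scripts used Python 3.11.15, numpy 2.4.6 and pandas 2.3.3, and were tested on simulated data. No test was run, since 2 libraries against 2 allow 3 splits and no p under 0.05. The members, gene lists and alternatives were chosen with earlier results of these data known. Named were all members, pathway genes with at least 2 regions of a kind, the genes most like each member (3 for Tnfrsf11a, 1 for the others), and regions of 1 group. Alternatives comprised peaks with a -log10 q of 5 or more, equal lists, 50% cover, 50 kb, bodies only, midpoint assignment, summit windows of 100 bp either side, a replicate block and leaving out each library.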

Additional observations from a re-analysis of the deposited data

How the results depend on the processing

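Counts in RANKL against untreated cells, in RANKL with I-BET against RANKL, and in RANKL with I-BET against untreated cells rested on weak peaks. Only peaks with a -log10 q of at least 5 left 2 regions of RANKL in the first comparison, at Traf3 and Map3k7, neither among the 8, and 0 of untreated cells; they left 0 of RANKL with I-BET in the other comparisons and 0 of untreated cells. Lists of equal length (117175 peaks) gave 4 of RANKL against untreated cells, 2 of RANKL with I-BET and 1 of RANKL, and 1 of RANKL with I-BET and 2 of untreated cells. Peaks covering 50% of a region gave 5 and 0, 2 and 1, and 0 of untreated cells in the last comparison, with 15 regions in all 7 libraries. Bodies alone gave 2 of untreated cells against RANKL, 1 of RANKL with I-BET against untreated cells, and 29 in all 7. Summit windows gave 2 of untreated cells against RANKL, 4 of RANKL against RANKL with I-BET, and 0 start sites. Genes within 50 kb and assignment by midpoint moved no count by over 1.5 times.

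Leaving out each library in turn gave 11 to 41 regions of RANKL and 4 to 21 of untreated cells, 7 to 44 of RANKL with I-BET and 0 to 16 of RANKL, 8 to 62 of RANKL with I-BET and 3 to 13 of untreated cells, 47 to 54 regions in all libraries and 6 start sites throughout.

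The labels do not say that replicate numbers pair samples, and they were not taken as pairing them. With a replicate block, numbers 1 and 2 taken apart, RANKL alone had 35 and 45 regions against 23 and 22 in untreated cells, RANKL with I-BET 20 and 51 against 26 and 16 with RANKL, and RANKL with I-BET 26 and 71 against 20 and 13 in untreated cells. Over all regions, RANKL replicate 2 shared 56.8% of the regions of both with untreated replicate 2, and 45.4% with RANKL replicate 1; RANKL replicate 1 shared 27.3% with untreated replicate 1 and 44.7% with untreated replicate 2. The alternatives for start sites and shares were added once the data had been seen.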
